A study of Mus musculus with 33 samples.

Results

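The transcripts of 10 genes of the NF-κB pathway were followed in CD8 T cells sorted from mouse skin: Nfkb1, Nfkb2, Rel, Rela and Relb, which encode the 5 subunits, and Nfkbia, Nfkbid, Nfkbiz, Tnfaip3 and Gadd45b, which encode feedback regulators. They were taken by symbol from the 2 read count tables. All 10 were found among 18054 gene rows in experiment 1 and 18052 in experiment 2, and all 10 passed the low-count filter, with 11588 and 12236 genes tested. They were listed by name and role, with earlier results of these data known.

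NF-κB is a family of dimeric transcription factors that inhibitor proteins hold in the cytoplasm of resting T cells. Signals from the T cell receptor (TCR), costimulatory receptors or cytokines lead to the destruction of the inhibitors, and the freed dimers enter the nucleus and bind κB sites. Several subunits and inhibitors are themselves NF-κB target genes, so their transcripts commonly follow recent activation and form negative feedback loops. Glucocorticoids are known to restrain this pathway.

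Allergy of the skin to dinitrofluorobenzene (DNFB) was used as a mouse model of contact dermatitis, and the study asked how a topical glucocorticosteroid, labelled TA and applied at 0.01%, acts on resident memory T cells (TRM) of the skin. The first experiment held 17 libraries of live CD45+CD8+CD69+CD103+ TRM from Nur77GFP mice, in which GFP reports recent TCR signalling. At day 1 after DNFB retest GFP-positive and GFP-negative TRM were sorted from acetone- and from TA-treated mice, with 2 libraries of each. GFP-negative TRM were also taken at day 6 under acetone and TA, at day 0 under TA (2 libraries each) and at day 0 under acetone (3 libraries). In the second experiment, with 16 libraries of sorted skin CD8 T cells of C57BL/6 mice and 2 in each group, CD69+CD103+ TRM were taken 11 or 42 days after DNFB under acetone or TA, and are called settled TRM here. Untreated CD69+CD103+ T cells and the 3 other subsets by CD69 and CD103 were taken at day 2.

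The tables name the libraries by codes. Only day 0 acetone, the GFP state at day 1 and the day 2 CD69+CD103+ cells could be read from them. The 2 day 1 arms are therefore called code 4 and code 3, of which 1 is TA and the other acetone. Codes 2, 5 and 6 are day 0 TA, day 6 acetone and day 6 TA in an unknown order, sets 2_03, 3_03, 4_03 and 5_03 are the settled TRM, and sets 1_02, 1_04 and 1_05 are the other day 2 subsets. No result can therefore be credited to TA, and where an arm is compared with day 0, day and treatment cannot be told apart. Replicates are named A, B and C in the first experiment and 1 and 2 in the second.

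Library totals ran from 2442825 to 8515297 counts in experiment 1 and from 2937814 to 13629838 in experiment 2. Libraries of the code 4 arm and of code 2 were the shallowest of the first experiment, with 2442825 to 3262545 counts, and their mitochondrial share was 29.27% to 36.73%, against 22.21% to 31.55% in its other libraries. The 10 genes together held 0.1228% to 0.459% of a library's counts in experiment 1 and 0.2751% to 0.5486% in experiment 2. All 9 CD8 T cell markers were detected in every set, summing to 4061 to 9014 CPM in experiment 1 and 4394 to 8382 CPM in experiment 2. Cd4 and Foxp3 together reached at most 19.85 CPM in the first and 27.4 CPM in the second. CPM are the counts of a gene scaled to a common library total (ERCC control rows left out), with no correction for composition. Fold changes are log2 values from edgeR's quasi-likelihood F test with their SE, adjusted by Benjamini-Hochberg over all genes tested, and a gene is called where the adjusted p is below 0.05. No label says that libraries came from separate mice, so the p-values measure the spread between these libraries, which may be technical. In sorted bulk samples fewer cells of a type and less RNA per cell cannot be told apart.

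Promoter windows, 250 bases before to 50 bases after an annotated start, were read for 7 of the 10 genes from RefSeq (GRCm38.p6), with 12 windows in all. The κB decamer, searched on both strands, was found in 7 of the 12 windows, belonging to 5 of the 7 genes (Nfkb2, Rel, Nfkbia, Nfkbid and Tnfaip3). Over all windows of the same length it was found in 2779 of 32851 (8.46%), and by gene in 2581 of 27025 (9.55%). The windows of Rela and Gadd45b held no match, and Nfkb1, Relb and Nfkbiz had no window to read. TGANTCA, an AP-1 motif, was found in 2 of the 12 windows (16.7%), 1 of Nfkb2 and 1 of Tnfaip3, against 7.81% of all windows. The 5 windows printed here belong to the 5 genes with a match. Nfkb2, Rel, Nfkbid and Nfkbia were called higher with GFP in both arms, and Tnfaip3 carries a match without a called difference with GFP. Gadd45b, whose window held no match, was called higher with GFP in both arms too, and Rela, also without a match, in neither. Nfkbia, Nfkbid and Tnfaip3 were called lower than at day 0 in code 2, as was Gadd45b, while Nfkb2 and Rel were not called. In GFP-negative cells of code 4 Nfkbia and Gadd45b were called lower than at day 0 and Nfkbid higher. Capitals mark κB decamer matches on either strand, and overlapping matches run together. A match describes the letters and is not evidence of binding.
Nfkb2, chr19:46304487-46304786, plus strand: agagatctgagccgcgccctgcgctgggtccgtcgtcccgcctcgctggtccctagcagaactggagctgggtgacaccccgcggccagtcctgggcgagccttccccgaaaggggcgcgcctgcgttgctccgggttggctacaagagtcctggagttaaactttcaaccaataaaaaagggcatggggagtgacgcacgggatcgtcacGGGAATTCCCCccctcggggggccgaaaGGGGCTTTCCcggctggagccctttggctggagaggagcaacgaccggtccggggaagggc
Rel, chr11:23770920-23771219, minus strand: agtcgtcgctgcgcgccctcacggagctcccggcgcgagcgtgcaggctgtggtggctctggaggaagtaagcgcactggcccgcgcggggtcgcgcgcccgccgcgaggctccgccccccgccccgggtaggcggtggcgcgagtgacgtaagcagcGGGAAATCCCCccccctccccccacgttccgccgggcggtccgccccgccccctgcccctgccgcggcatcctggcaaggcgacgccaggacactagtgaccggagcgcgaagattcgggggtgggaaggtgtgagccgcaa
Nfkbia, chr12:55492598-55492897, minus strand: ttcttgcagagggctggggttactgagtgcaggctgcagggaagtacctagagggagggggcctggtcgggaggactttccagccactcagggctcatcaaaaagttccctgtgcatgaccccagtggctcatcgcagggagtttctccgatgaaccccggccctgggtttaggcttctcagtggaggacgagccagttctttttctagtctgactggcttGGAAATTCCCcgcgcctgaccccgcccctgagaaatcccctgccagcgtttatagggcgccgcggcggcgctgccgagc
Nfkbid, chr7:30422156-30422455, plus strand: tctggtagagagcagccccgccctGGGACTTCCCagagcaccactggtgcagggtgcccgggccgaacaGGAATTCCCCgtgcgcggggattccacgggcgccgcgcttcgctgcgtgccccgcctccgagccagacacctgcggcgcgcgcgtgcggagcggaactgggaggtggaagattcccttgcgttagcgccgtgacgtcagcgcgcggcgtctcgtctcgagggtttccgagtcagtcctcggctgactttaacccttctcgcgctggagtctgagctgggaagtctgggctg
Tnfaip3, chr10:19015361-19015660, minus strand: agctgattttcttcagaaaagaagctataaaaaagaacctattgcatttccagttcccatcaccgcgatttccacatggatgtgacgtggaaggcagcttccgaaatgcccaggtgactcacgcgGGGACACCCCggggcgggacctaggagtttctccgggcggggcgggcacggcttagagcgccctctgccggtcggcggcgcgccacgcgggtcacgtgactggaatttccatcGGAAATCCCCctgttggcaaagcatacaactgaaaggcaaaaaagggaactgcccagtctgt
Counted from the start site, the first matched base lies at -39 in the Nfkb2 window (with a second run at -11), at -92 in Rel, at -29 in Nfkbia, at -226 and -181 in Nfkbid, and at -125 and -12 in Tnfaip3. The Tnfaip3 window also holds TGACTCA at -136.

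GFP-positive TRM held more transcript of 4 of the 5 subunits and of 3 of the 5 feedback genes than GFP-negative TRM at day 1. Over the mean of both arms 7 of the 10 genes were called, all higher, against 12.1% of all genes called in either direction and 5.59% called higher. The median log2 fold change was 1.40 over the 10 genes and -0.03 over all genes tested. Rela, Nfkbiz and Tnfaip3 were not called. In 8 of the 10 genes all 4 GFP-positive libraries lay above all 4 GFP-negative ones, and the share of all genes that do so was not computed. Nr4a1, which encodes Nur77 and so describes the sort, was 1.83 ± 0.13 log2 units higher in GFP-positive cells (adjusted p = 1.85e-08).

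Rel (chr11:23736847-23770970, minus strand, GRCm38) encodes c-Rel, the subunit closely tied to lymphocyte activation and Il2 transcription. Its level was 84.9 and 106 CPM in the GFP-positive and 9.82 and 11.1 CPM in the GFP-negative libraries of code 4, and 147 and 88.9 CPM in GFP-positive against 14 and 12 CPM in GFP-negative libraries of code 3. The lowest GFP-positive library stood well above the highest GFP-negative one. The log2 fold change was 3.31 ± 0.43 over both arms (edgeR adjusted p = 3.54e-05), the largest of the 10 genes.

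Nfkb2 (chr19:46304320-46312385, plus strand) encodes the precursor whose processing yields the partner of RelB in the non-canonical pathway. It was measured at 368 and 355 CPM in GFP-positive against 112 and 97.7 CPM in GFP-negative TRM of code 4, and at 303 and 346 CPM in GFP-positive against 115 and 133 CPM in GFP-negative TRM of code 3. GFP-positive levels of both arms did not overlap with the GFP-negative ones (log2 fold change 1.72 ± 0.15, edgeR adjusted p = 1.08e-07). Its gene overlaps Psd on the other strand over 299 bases. Counting may or may not have used strand, which no source used here gives, but Psd had at most 4 counts in any library. Nfkb2 also overlaps AC114539.1 on the other strand over 1292 bases, not analysed here.

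Nfkb1 (chr3:135584655-135691547, minus strand) encodes the precursor of the canonical DNA-binding partner of RelA and c-Rel. Its levels were 424 and 337 CPM in GFP-positive and 224 and 175 CPM in GFP-negative cells of code 4, and 865 and 784 CPM in GFP-positive against 290.0 and 283 CPM in GFP-negative cells of code 3. The gene overlaps Gm43430 on the same strand over 3897 bases, not analysed here. Both sorts of code 3 lay above the same sort of code 4. The log2 fold change with GFP was 1.36 ± 0.17 over both arms (edgeR adjusted p = 1.67e-05). Within code 4 it was 1.03 ± 0.24, and that call was lost without GFP-positive library A (adjusted p = 0.0857) or GFP-negative library B (adjusted p = 0.0962).

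Relb (chr7:19606217-19629438, minus strand), the non-canonical subunit, had 45.9 to 58.6 CPM over the 4 GFP-positive libraries and 16.4 to 27.9 CPM over the 4 GFP-negative ones. The groups did not overlap, and the log2 fold change was 1.43 ± 0.25 (edgeR adjusted p = 0.000496). Within a single arm the call did not hold when most of its libraries were left out, with adjusted p between 0.0621 and 0.1 in code 4 (without GFP-negative B, GFP-positive A or GFP-positive B) and between 0.0682 and 0.312 in code 3 (without GFP-negative A, GFP-positive A or GFP-positive B).

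Rela (chr19:5637483-5648130, plus strand) encodes p65, the main transactivating subunit, whose protein is regulated mostly by its location. It had 88.9 and 94.4 CPM in GFP-positive against 49.9 and 53.2 CPM in GFP-negative TRM of code 4, and 59.7 and 63.6 CPM in GFP-positive against 46.7 and 56.4 CPM in GFP-negative TRM of code 3. All GFP-positive libraries were higher, by 0.68 ± 0.22 log2 units, and the difference missed the threshold (edgeR adjusted p = 0.0539). DESeq2 called it (adjusted p = 0.0241).

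Among the feedback genes, Gadd45b (chr10:80930073-80932204, plus strand), an inducible gene whose product curbs JNK signalling, differed by sort in both arms. GFP-positive libraries had 311 and 332 CPM in code 4 and 406 and 317 CPM in code 3, against 75.3 and 72.6 CPM and 62.9 and 92.6 CPM in the GFP-negative libraries of the same arms. The lowest GFP-positive library was at 311 CPM and the highest GFP-negative one at 92.6 CPM. The log2 fold change was 2.30 ± 0.14 (edgeR adjusted p = 1.09e-09).

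Nfkbid (chr7:30421732-30428746, plus strand) encodes IκBNS, a nuclear inhibitor that binds promoter-bound dimers. It was at 936 and 825 CPM in GFP-positive and 395 and 376 CPM in GFP-negative cells of code 4, and at 801 and 626 CPM in GFP-positive against 167 and 194 CPM in GFP-negative cells of code 3. The GFP-negative cells of code 4 stood apart from those of code 3, while the GFP-positive ones differed by 0.19 ± 0.19 log2 units (code 4 minus code 3, edgeR adjusted p = 0.677). Over both arms the log2 fold change was 1.72 ± 0.14 (edgeR adjusted p = 3.43e-08), with 1.29 ± 0.19 in code 4 and 2.14 ± 0.20 in code 3.

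Nfkbia (chr12:55489410-55492647, minus strand) encodes IκBα, the inhibitor that is degraded and then resynthesised under NF-κB control. GFP-positive TRM had 912 and 742 CPM in code 4 and 1205 and 1006 CPM in code 3, and GFP-negative TRM had 489.6 and 559.7 CPM and 458 and 676 CPM in the same arms. The 2 sorts did not overlap (0.94 ± 0.12 log2 units, edgeR adjusted p = 1.75e-05). Within code 4 the difference was 0.76 ± 0.17, and the call was lost without GFP-negative library A (adjusted p = 0.054) or GFP-positive library A (adjusted p = 0.0796).

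Tnfaip3 (chr10:19000910-19015657, minus strand) encodes the ubiquitin-editing enzyme that shuts off signalling upstream of NF-κB. Its level was 618 and 533 CPM in GFP-positive against 548 and 581 CPM in GFP-negative TRM of code 4, and 591 and 388 CPM in GFP-positive against 454 and 512 CPM in GFP-negative TRM of code 3. The sorts overlapped in both arms, and the difference was 0.15 ± 0.13 log2 units (edgeR adjusted p = 0.514). Nfkbiz (chr16:55811375-55838899, minus strand), which encodes the nuclear protein IκBζ, had 83.7 and 51.5 CPM in GFP-positive against 126 and 69.5 CPM in GFP-negative TRM of code 4. In code 3 it had 152 and 115 CPM in GFP-positive against 81.2 and 85.1 CPM in GFP-negative TRM. The groups overlapped in code 4 and did not in code 3, and neither arm was called (-0.44 ± 0.30 with adjusted p = 0.418 in code 4 and 0.84 ± 0.29 with adjusted p = 0.119 in code 3, edgeR).

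**Figure D1:**
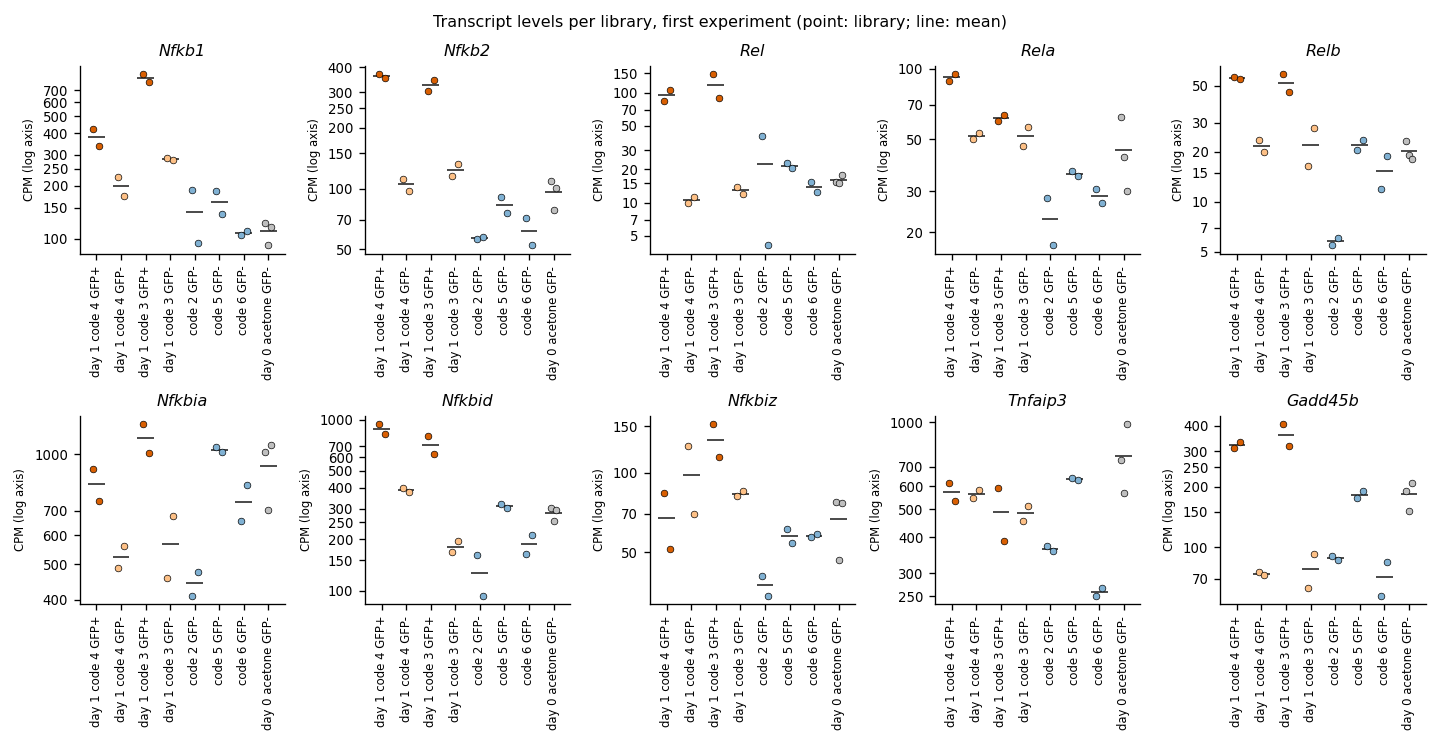
CPM (log axis) of the 10 genes in each library of the first experiment, 1 panel per gene. Points are libraries and lines are means of 2 libraries (3 for day 0 acetone). GFP-positive points lie above GFP-negative points of the same arm in every panel but those of Nfkbiz and Tnfaip3.

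Within each arm 7 of the 10 genes were called higher in GFP-positive TRM, with 8.07% of all genes called in code 4 and 5.36% in code 3. The same 7 were called in both arms, and the share of all genes called in both was not computed. The difference between the arms in this response was tested directly and no gene of the 10 was called by edgeR, against 0.889% of all genes. At an unadjusted p below 0.05, 2 of the 10 passed, and DESeq2 called 0. These 2 were Nfkbiz, at -1.27 ± 0.42 log2 units (code 4 minus code 3, adjusted p = 0.197), and Nfkbid, at -0.85 ± 0.27 (adjusted p = 0.171). For Nfkb1 the value was -0.65 ± 0.34, for Nfkbia -0.37 ± 0.24, and for the other 6 genes it lay between -0.16 and 0.51. A missed threshold does not show that the arms responded alike.

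**Figure D2:**
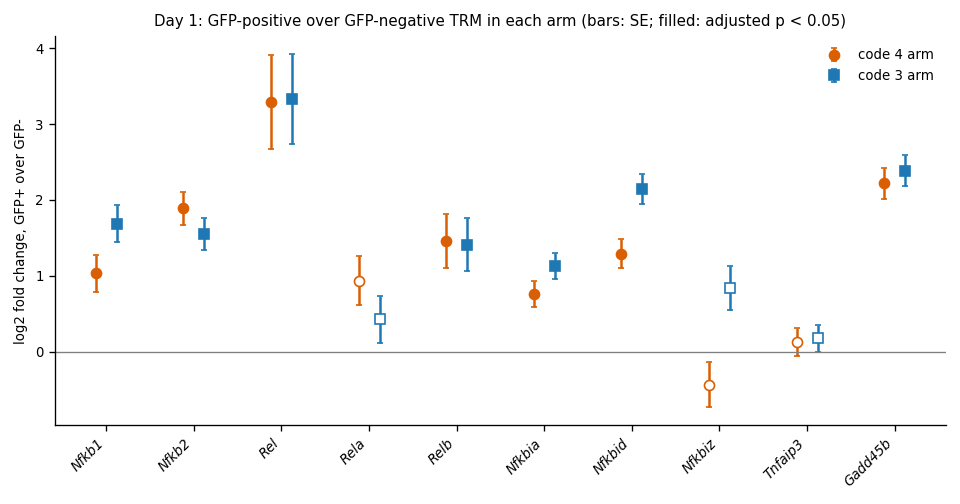
Log2 fold change of GFP-positive over GFP-negative TRM at day 1 in the code 4 arm (circles) and the code 3 arm (squares), with SE bars, n = 2 libraries per sort and arm. Filled points have an adjusted p below 0.05; 7 genes are filled in both arms, from 0.76 for Nfkbia in code 4 to 3.33 for Rel in code 3.

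Transcripts of other cells moved with the sort in part. Summed over the 13 mononuclear phagocyte markers in the table, GFP-positive against GFP-negative libraries had 331 to 336 against 19.65 to 54.38 CPM in code 4, and 684.1 to 881 against 830.7 to 839.2 CPM in code 3. The 16 keratinocyte markers summed to 614.1 to 758 CPM in GFP-positive against 524.4 to 702.6 CPM in GFP-negative libraries of code 4, and to 1403 to 1749 CPM in GFP-positive against 2941 to 3247 CPM in GFP-negative libraries of code 3. The 16 dissociation and stress genes summed to 11060 to 11690 CPM in GFP-positive against 7453 to 7884 CPM in GFP-negative libraries of code 4, and to 8549 to 10630 CPM in GFP-positive against 7127 to 8306 CPM in GFP-negative libraries of code 3. The 9 CD8 T cell markers summed to 4259 to 4365 CPM in GFP-positive against 4469 to 4862 CPM in GFP-negative libraries of code 4, and to 4061 to 4062 CPM in GFP-positive against 6056 to 6223 CPM in GFP-negative libraries of code 3. The part of these in the result was not tested.

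Comparing the arms directly, 1 of the 10 genes differed in GFP-negative TRM and 1 in GFP-positive TRM. Both counts are not far from the shares of all genes called, given below, and say nothing particular of the 10 genes as a set. In GFP-negative cells Nfkbid was higher in code 4, with 395 and 376 CPM in code 4 against 167 and 194 CPM in code 3 (1.04 ± 0.19 log2 units, edgeR adjusted p = 0.00157), and 6.69% of all genes were called. That call held under every alternative tried. In the same cells phagocyte markers summed to 19.65 to 54.38 CPM in code 4 against 830.7 to 839.2 CPM in code 3. Keratinocyte markers summed to 524.4 to 702.6 CPM in code 4 (12 of 16 called lower) against 2941 to 3247 CPM in code 3. CD8 T cell markers summed to 4469 to 4862 CPM in code 4 against 6056 to 6223 CPM in code 3. In GFP-positive cells Nfkb1 was lower in code 4, with 424 and 337 CPM in code 4 against 865 and 784 CPM in code 3 (-1.23 ± 0.24, edgeR adjusted p = 0.00599), and 3.17% of all genes were called. Without GFP-positive library B of code 4 the Nfkb1 call was lost (-1.13, adjusted p = 0.0661). Nfkbiz in GFP-positive cells was near the threshold, with 83.7 and 51.5 CPM in code 4 against 152 and 115 CPM in code 3 (-1.09 ± 0.30, edgeR adjusted p = 0.0508), and was called by DESeq2 (adjusted p = 0.021). The code 4 libraries were shallower and richer in mitochondrial reads. In GFP-positive cells keratinocyte markers summed to 614.1 to 758 CPM in code 4 against 1403 to 1749 CPM in code 3. Of the 16, 10 were called lower in code 4 and 1 higher. Phagocyte markers summed to 331 to 336 CPM in code 4 against 684.1 to 881 CPM in code 3. CD8 T cell markers summed to 4259 to 4365 CPM in code 4 against 4061 to 4062 CPM in code 3. The part of marker sums, depth and mitochondrial share in these calls was not tested.

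Set against day 0 acetone, GFP-positive day 1 TRM had more transcript of most of the family. In code 4, 7 of the 10 genes were called, all higher, with 18.9% of all genes called, and in code 3, 9 of the 10, all higher, with 19% of all genes called. The median over the 10 genes was 1.5 in code 4 and 1.53 in code 3, against -0.14 and -0.09 over all genes tested. The 2 comparisons share the day 0 libraries. Nfkb1, at 424 and 337 CPM in code 4 and 865 and 784 CPM in code 3 against 123, 91.5 and 116 CPM at day 0, was 2.04 ± 0.22 log2 units higher in code 4 (edgeR adjusted p = 1.22e-06) and 3.27 ± 0.22 higher in code 3 (adjusted p = 2.2e-09). Rel, at 84.9 to 147 CPM over the 4 GFP-positive libraries against 15.5, 15.2 and 17.8 CPM at day 0, was 2.82 ± 0.50 log2 units higher in code 4 and 3.23 ± 0.51 higher in code 3. No GFP-positive library of either gene reached down to its day 0 range. Nfkb2, Relb, Nfkbid and Gadd45b were called in both arms without overlap between libraries. Nfkbiz was called in code 3 (1.38 ± 0.26, adjusted p = 0.000793) and had 0.29 ± 0.27 in code 4 (adjusted p = 0.502).

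Marker sums moved with this comparison as well. Keratinocyte markers summed to 614.1 to 758 CPM in code 4 (12 of 16 called lower and 3 higher) and to 1403 to 1749 CPM in code 3 (9 called lower and 3 higher), against 3533 to 4143 CPM at day 0. CD8 T cell markers summed to 4259 to 4365 CPM in code 4 and 4061 to 4062 CPM in code 3, with 6 of 9 called lower in each arm, against 7742 to 9014 CPM at day 0. Phagocyte markers summed to 331 to 336 CPM in code 4 and 684.1 to 881 CPM in code 3, against 217.6 to 402.1 CPM at day 0, and neutrophil markers to 11.57 to 38.93 CPM in code 4 and 76.22 to 85.36 CPM in code 3, against 2.867 to 19.15 CPM at day 0. Dissociation and stress genes summed to 11060 to 11690 CPM in code 4 and 8549 to 10630 CPM in code 3, overlapping with the 8406 to 12110 CPM at day 0. The part of these in the result was not tested.

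Rela and Nfkbia read differently here than in the GFP comparison, as did Nfkbiz in code 3, while Tnfaip3 was called in neither comparison. Rela, at 88.9 and 94.4 CPM in code 4 and 59.7 and 63.6 CPM in code 3 against 62.3, 42.1 and 30.1 CPM at day 0, was called in code 4 (1.28 ± 0.28, edgeR adjusted p = 0.00305) and in code 3 (0.82 ± 0.28, adjusted p = 0.0475). In code 3 its libraries overlapped with day 0, and the call was lost under 7 of 10 alternatives, among them leaving out day 0 library B (adjusted p = 0.106) or C (0.195) and GFP-positive library A (0.127) or B (0.246). Nfkbia had 912 and 742 CPM in code 4 and 1205 and 1006 CPM in code 3, against 1012, 703 and 1061 CPM at day 0. The groups overlapped in both arms, with 0.10 ± 0.15 log2 units in code 4 (adjusted p = 0.688) and 0.63 ± 0.15 in code 3 (adjusted p = 0.00524, lost without GFP-positive library A, 0.0702). Tnfaip3 had 388 to 618 CPM over the 4 GFP-positive libraries against 739.8, 568 and 983 CPM at day 0, and was not called in either arm (-0.14 ± 0.17 in code 4 and -0.27 ± 0.17 in code 3). The mean of Nfkbia in code 4 was 827 CPM against 925 CPM at day 0 although its fitted value was above 0, since the test scales libraries by factors that plain CPM does not hold (0.8311 to 0.9403 in GFP-positive and 1.023 to 1.158 in day 0 libraries).

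GFP-negative TRM of day 1 differed from day 0 acetone in a mixed way. Nfkb1 was higher in both arms, at 224 and 175 CPM in code 4 (1.01 ± 0.22 log2 units, edgeR adjusted p = 0.0058) and 290.0 and 283 CPM in code 3 (1.59 ± 0.22, adjusted p = 0.000114), against 123, 91.5 and 116 CPM at day 0, with no overlap. Gadd45b was lower in both, at 75.3 and 72.6 CPM in code 4 (-1.15 ± 0.19, adjusted p = 0.000501) and 62.9 and 92.6 CPM in code 3 (-1.03 ± 0.18, adjusted p = 0.00183), against 190.4, 152 and 208 CPM at day 0. The Gadd45b libraries did not overlap either. So Gadd45b of day 1 stood on both sides of its day 0 level, higher in GFP-positive and lower in GFP-negative cells. In code 4, 2 of the 10 genes rose and 2 fell, with 8.63% of all genes called, the others being Nfkbid (0.59 ± 0.17, adjusted p = 0.034) and Nfkbia (-0.65 ± 0.16, adjusted p = 0.0118). In code 3, 1 rose and 1 fell, with 3.94% of all genes called. Nfkbia was below all day 0 libraries in code 3 too, at 458 and 676 CPM against 1012, 703 and 1061 CPM at day 0. It was not called there by edgeR (-0.50 ± 0.16, adjusted p = 0.084) and was called by DESeq2 (adjusted p = 0.0137).

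Several of these GFP-negative calls were lost when 1 library was left out. Leaving out a day 1 library leaves a lone one in its set, so a lost call does not show that the result rests on that library. The fold changes kept their sign, and that of Nfkbid in code 4 lay between 0.50 and 0.61 under every alternative. Without GFP-negative library A of code 4, Nfkb1 (adjusted p = 0.0935), Nfkbia (0.0939) and Nfkbid (0.176) were not called. Nfkbid in code 4 was also lost without GFP-negative library B (0.11) or any of the day 0 libraries (0.0776 to 0.141). Without GFP-negative library A of code 3 the Gadd45b call was lost (adjusted p = 0.0778).

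Marker sums moved with this comparison too. Phagocyte markers summed to 19.65 to 54.38 CPM in code 4 and 830.7 to 839.2 CPM in code 3, against 217.6 to 402.1 CPM at day 0. Keratinocyte markers summed to 524.4 to 702.6 CPM in code 4, where 11 of 16 were called lower, and to 2941 to 3247 CPM in code 3, where 4 were called lower and 4 higher, against 3533 to 4143 CPM at day 0. Dissociation and stress genes summed to 7453 to 7884 CPM in code 4 (6 of 16 called lower) and 7127 to 8306 CPM in code 3 (4 called lower and 1 higher), against 8406 to 12110 CPM at day 0. CD8 T cell markers summed to 4469 to 4862 CPM in code 4 and 6056 to 6223 CPM in code 3, against 7742 to 9014 CPM at day 0. The 6 neutrophil markers summed to 11.46 to 11.91 CPM in code 4 and 87.49 to 92.57 CPM in code 3, against 2.867 to 19.15 CPM at day 0. Keratinocyte, dissociation and stress, and CD8 sums were thus below day 0 in both arms, phagocyte sums on both sides of it, and neutrophil sums above it in code 3. Their part in the GFP-negative differences was not tested.

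Nr4a1 in the same comparisons was -0.40 ± 0.17 log2 units in code 4 (edgeR adjusted p = 0.159) and -0.80 ± 0.17 in code 3 (adjusted p = 0.00926). Cells of day 1 and day 0 were sorted as GFP-negative in both comparisons.

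The remaining GFP-negative sets, codes 2, 5 and 6, held the 10 genes at or below their day 0 acetone levels where a difference was called. In code 2, 5 of the 10 fell and 5 were not called, with 3.53% of all genes called, and the median log2 fold change was -0.85 over the 10 genes and -0.03 over all. Tnfaip3 had 372 and 357 CPM against 739.8, 568 and 983 CPM at day 0 (-0.89 ± 0.17, edgeR adjusted p = 0.00339) and Nfkbia 411 and 476 CPM against 1012, 703 and 1061 CPM at day 0 (-0.89 ± 0.16, adjusted p = 0.00181), both below all day 0 libraries. Nfkbid had 161 and 93.5 CPM against 303, 257 and 294 CPM at day 0 (-1.0 ± 0.18, adjusted p = 0.00198). Gadd45b had 91 and 86.4 CPM against 190.4, 152 and 208 CPM at day 0 (-0.88 ± 0.18, adjusted p = 0.008). Relb had 5.47 and 6.1 CPM against 23.2, 19 and 18.1 CPM at day 0 (-1.63 ± 0.37, adjusted p = 0.0139).

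The 2 libraries of code 2 disagreed for some genes. Rel was 40.6 CPM in library A and 4.06 CPM in library B, and Nfkb1 was 191 and 94.8 CPM. Without library B, Rel (1.48, edgeR adjusted p = 0.0268) and Nfkb1 (0.94, adjusted p = 0.0153) were called higher than day 0, and Nfkbid was no longer called (adjusted p = 0.0638). The Relb call was lost without library A (0.138) or B (0.101), and so was that of Gadd45b (0.0561 and 0.086). Code 2 had the lowest phagocyte sums among these sets (12.5 to 24.73 CPM, against 217.6 to 402.1 CPM at day 0), keratinocyte sums of 1952 to 2037 CPM against 3533 to 4143 CPM at day 0, and dissociation and stress sums of 7034 to 7128 CPM against 8406 to 12110 CPM at day 0. Its totals were 2560156 and 2952120 counts with 36.33% and 34.91% mitochondrial reads. The part of these in the result was not tested.

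In code 6, 2 of the 10 genes fell, with 4.56% of all genes called. Tnfaip3 had 251 and 266 CPM, the lowest of the 8 sets (-1.40 ± 0.17, edgeR adjusted p = 6.33e-05), and Gadd45b had 57.7 and 84.4 CPM (-1.21 ± 0.18, adjusted p = 0.000462). Both were below all day 0 libraries and kept their calls under every alternative. Nr4a1 was lower in code 6 too (-1.39 ± 0.18, adjusted p = 9.93e-05), keratinocyte sums were 7069 to 7349 CPM against 3533 to 4143 CPM at day 0, and dissociation and stress sums 5389 to 6717 CPM against 8406 to 12110 CPM at day 0. CD8 T cell markers summed to 6817 to 7161 CPM in code 6 against 7742 to 9014 CPM at day 0. The part of these in the code 6 result was not tested. In code 5 no gene of the 10 was called by edgeR or by DESeq2, 1 passed an unadjusted p below 0.05 (Nfkb1, 0.54 ± 0.22), and 0.897% of all genes were called. Its Tnfaip3 level was 639 and 633 CPM, its Nfkbia level 1044 and 1014 CPM and its Gadd45b level 176 and 189 CPM, all within the range of the day 0 libraries.

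**Figure D3:**
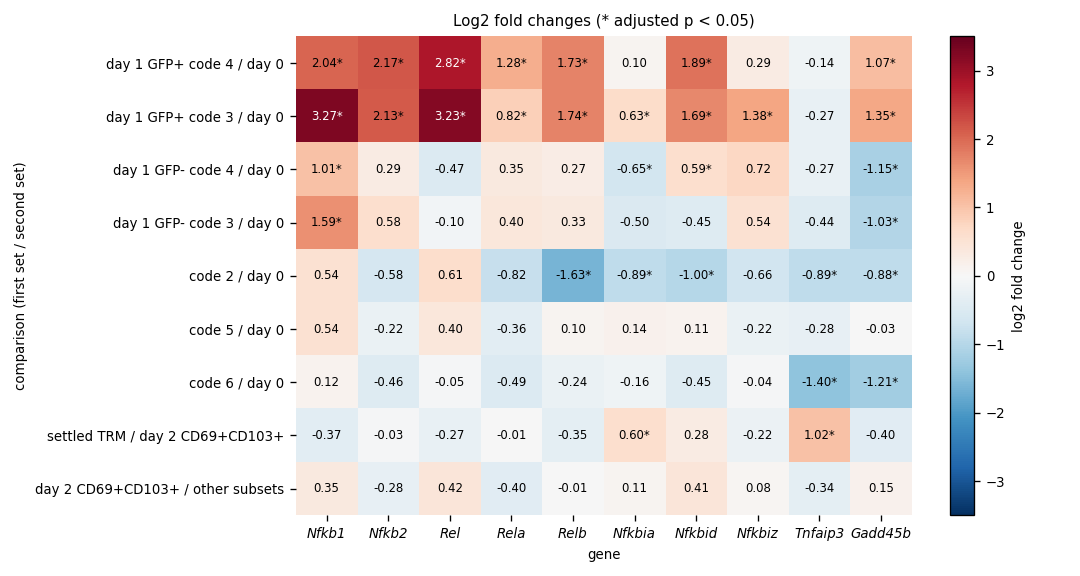
Log2 fold changes of the 10 genes (columns) in 9 comparisons (rows, first set over second), with an asterisk where the edgeR adjusted p is below 0.05. Nfkb1, Nfkb2, Rel and Relb are high in the 2 GFP-positive rows, Gadd45b changes sign between GFP-positive and GFP-negative rows, and Tnfaip3 is high in the settled TRM row and low in the code 2 and code 6 rows.

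In the second experiment settled TRM differed from day 2 CD69+CD103+ cells in 2 of the 10 genes, Tnfaip3 and Nfkbia, both higher, with 8.21% of all genes called. Tnfaip3 had 1768 and 1547 CPM in set 2_03, 1403 and 1459 in 3_03, 1794 and 2007 in 4_03 and 2550.5 and 2332 in 5_03, against 861 and 923 CPM at day 2. All 8 settled libraries lay above both day 2 libraries (1.02 ± 0.12 log2 units, edgeR adjusted p = 1.08e-05), and the call held under every alternative. Nfkbia had 922 and 784, 586 and 669, 995 and 1250.0, and 1130.1 and 1151 CPM in the same order of sets, against 591 and 599 CPM at day 2. Set 3_03 overlapped with day 2 and the other 3 sets lay above it (0.60 ± 0.13, adjusted p = 0.00511). Leaving out day 2 library 1 (adjusted p = 0.127) or 2 (0.143) ended that call.

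The subunits showed no called change in this comparison. Nfkb1 was 332 to 496 CPM over the 8 settled libraries against 569.7 and 466 CPM at day 2 (-0.37 ± 0.14, edgeR adjusted p = 0.139). Rel was 25.3 to 80.8 CPM in settled libraries against 47.3 and 53.7 CPM at day 2, and Nfkb2 was 132 to 221 CPM in settled libraries against 185 and 149 CPM at day 2. Rela was 22.2 to 76 CPM in settled libraries against 52.4 and 38.5 CPM at day 2, and Relb was 19.8 to 43.4 CPM in settled libraries against 45.8 and 30.3 CPM at day 2. Neither the canonical nor the non-canonical subunits thus separated the groups. Among the other feedback genes Nfkbid was 267 to 669 CPM in settled libraries against 405 and 305 CPM at day 2, Nfkbiz 165 to 249 CPM in settled libraries against 261 and 202 CPM at day 2, and Gadd45b 49.6 to 102 CPM in settled libraries against 108 and 87.3 CPM at day 2. The settled and day 2 libraries overlapped for each of these 8 genes, and the median over the 10 genes was -0.12 log2 units, against -0.07 over all genes.

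Other transcripts moved with this comparison. The 16 dissociation and stress genes, among them Fos, Jun and Dusp1, summed to 13460 to 28290 CPM in settled sets (15770 to 17960 in 2_03, 13460 to 14400 in 3_03, 25180 to 28290 in 4_03 and 19970 to 21510 in 5_03), against 7719 to 7788 CPM in day 2 CD69+CD103+ cells, without overlap. Nr4a1 was 1.63 ± 0.16 log2 units higher in settled TRM (edgeR adjusted p = 2.15e-06). Keratinocyte sums were 2333 to 6339 CPM in settled sets against 5852 to 8634 CPM at day 2, and neutrophil sums 2.469 to 18.32 CPM in settled sets against 122 to 130.7 CPM at day 2, with 3 to 5 of the 6 neutrophil markers at 0 in a settled set. CD8 T cell markers summed to 5827 to 8382 CPM in settled sets against 4794 to 5321 CPM at day 2, without overlap. Of the 9, 3 were called higher and 0 lower. The part of all these transcripts in the Tnfaip3 and Nfkbia result was not tested.

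Among the 4 settled sets, which differ in day and treatment, a difference of any kind was called for Nfkbia (edgeR adjusted p = 0.0298), 1 of the 10 genes, with 2.12% of all genes called. Its set 3_03 was the lowest and sets 4_03 and 5_03 the highest, with set 2_03 between them. The call was lost without library 1 (adjusted p = 0.153) or 2 (0.0913) of set 3_03, library 2 of 4_03 (0.109) or library 2 of 5_03 (0.0547). Tnfaip3 followed an order of 5_03 over 4_03 over 2_03 over 3_03 by set mean and was not called (adjusted p = 0.0673), and the libraries of 2_03 and 3_03 stood apart by less than the spread within 2_03. DESeq2 called 3 genes, Nfkbia, Tnfaip3 and Rel. Rel was highest in set 2_03, at 59.1 and 80.8 CPM, against 25.3 to 56.7 CPM in the other settled sets.

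At day 2 the CD69+CD103+ cells were not told apart from the mean of the other subsets by any of the 10 genes in edgeR, with 0.368% of all genes called. At an unadjusted p below 0.05, 3 passed (Nfkb1, Nfkbid and Tnfaip3), and DESeq2 called 1, Tnfaip3. Tnfaip3 had 861 and 923 CPM in CD69+CD103+ cells, against 987 and 1112 in 1_02, 1135 and 1161 in 1_04 and 1132 and 1559 CPM in 1_05 (-0.34 ± 0.11, edgeR adjusted p = 0.416), so both libraries lay below the other 6. A difference of any kind among the 4 subsets was called for 0 of the 10 by edgeR, with 1.21% of all genes called, while 4 passed an unadjusted p below 0.05 and DESeq2 called 3 (Nfkb1, Nfkbid and Tnfaip3). Nfkbid was 405 and 305 CPM in CD69+CD103+ cells and 365 and 435 CPM in 1_02, against 205 and 277 CPM in 1_04 and 186 and 266 CPM in 1_05, and edgeR gave an adjusted p of 0.133. The first pair of subsets lay above the second without overlap, but this grouping was chosen from the values and was not tested.

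**Figure D4:**
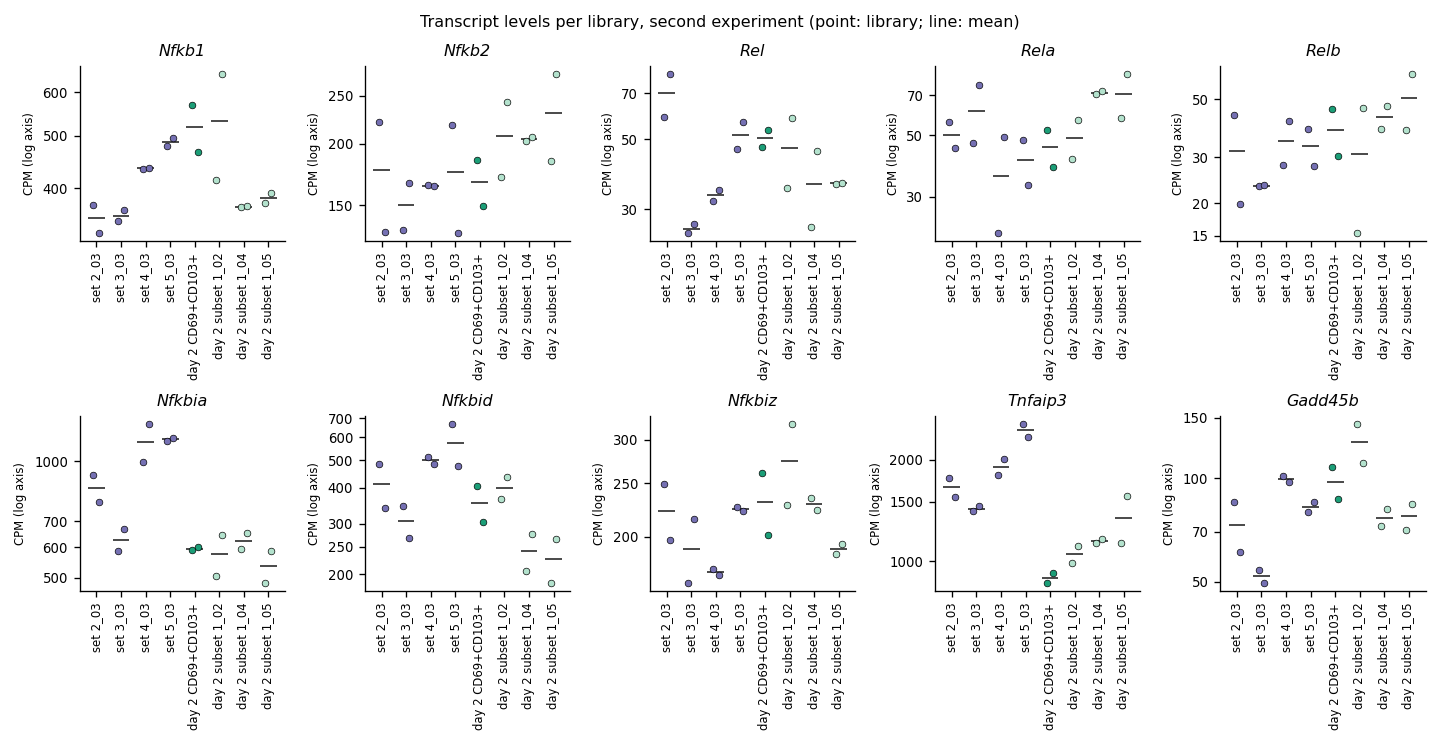
CPM (log axis) of the 10 genes in each library of the second experiment, 1 panel per gene. Points are libraries and lines means of 2 libraries; the 4 settled TRM sets are left of the day 2 CD69+CD103+ cells, and the other day 2 subsets are on the right. Tnfaip3 in settled TRM lies at 1403 CPM or more in every library, against 861 and 923 CPM in day 2 CD69+CD103+ cells.

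Around these 10 genes, a list of 32 further components of the pathway (kinases, adaptors, other inhibitors and ubiquitin editors) held 31 tested genes, all but Otulin. With GFP at day 1, 3 of the 31 rose and 28 were not called, with a median of 0.10 log2 units against -0.03 over all genes. With 12.1% of all genes called, and 5.59% called higher, this count is near the background and says nothing particular of the list. The 3 were Nfkbib, which encodes IκBβ (2.06 ± 0.21, edgeR adjusted p = 7.94e-07), Traf1, a signalling adaptor that NF-κB induces (1.56 ± 0.24, adjusted p = 0.000137), and Traf3, an adaptor that restrains the non-canonical kinase (1.94 ± 0.62, adjusted p = 0.0472). By arm, Nfkbib and Traf1 were called in both, and Traf3 in code 4 (3.36 ± 0.97, edgeR adjusted p = 0.0377) but not in code 3. In GFP-negative cells Traf3 was lower in code 4 than in code 3 (-3.49 ± 0.96, adjusted p = 0.0337). The kinase genes Chuk, Ikbkb and Ikbkg and the adaptor gene Bcl10 were among those not called over both arms. In settled TRM against day 2 CD69+CD103+ cells 2 of the 31 rose and 2 fell, with 8.21% of all genes called, so this count too is not far from the background. Birc3, a ubiquitin ligase (1.03 ± 0.24, adjusted p = 0.00979), and Malt1, a protease that couples the TCR to NF-κB (1.14 ± 0.27, adjusted p = 0.0103), were higher, while Traf3 (-1.37 ± 0.33) and Traf1 (-0.76 ± 0.22) were lower.

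A second list held 24 genes known as NF-κB targets in T cells, of which 23 were tested. With GFP at day 1, 16 of the 23 rose and 1 fell, with a median of 1.55 log2 units against -0.03 over all genes, of which 12.1% were called and 5.59% called higher. The chemokine Ccl3 rose by 4.36 ± 0.12 log2 units (edgeR adjusted p = 1.35e-15), the costimulatory receptor Tnfrsf9 by 2.84 ± 0.15, Ccl4 by 3.09 ± 0.15, the cytokine Il2 by 5.53 ± 0.35, Cd83 by 4.45 ± 0.54 and Tnf by 1.54 ± 0.21. In the difference between the arms in the GFP response 4 of the 23 were called, with 0.889% of all genes called. Ccl3 (-2.60 ± 0.22, adjusted p = 1.07e-06), Il2 (-5.22 ± 0.77) and Tnf (-2.79 ± 0.42) had the smaller response in code 4, and Tnfrsf9 the larger one (2.23 ± 0.28, adjusted p = 0.00032).

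In settled TRM against day 2 CD69+CD103+ cells 9 of the 23 fell and 14 were not called, with 8.21% of all genes called in either direction, and the median was -0.59 log2 units against -0.07 over all genes. Tnfrsf4 was -3.83 ± 0.24 (edgeR adjusted p = 1.03e-08), Tnfrsf9 -1.31 ± 0.13, the IL-2 receptor gene Il2ra -1.53 ± 0.18, Tnfrsf18 -1.02 ± 0.17, the apoptosis inhibitor Cflar -1.60 ± 0.32 and the kinase Pim1 -0.65 ± 0.16.

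The genes most like each of the 10 were sought by Pearson correlation of mean log2 CPM over the 8 sets of the first experiment, which share libraries of unequal depth. The 3 nearest to Rel were Pdcd1lg2 (r = 0.992), 1700012B09Rik (0.990) and Pou2af1 (0.984), to Nfkb1 Agfg1 (0.994), Dhx15 (0.989) and Arap2 (0.986), and to Nfkb2 Hspa9 (0.984), Ctps (0.982) and Gm11974 (0.981). For Relb they were Sdad1 (0.984), Sik3 (0.976) and Map2k3 (0.974), and for Rela Pfdn2 (0.984), Scyl2 (0.984) and Gabpb1 (0.981). Among the feedback genes, Nfkbid was nearest to Nsun5 (0.987), Ptpn2 (0.986) and Metap1 (0.985), and Gadd45b to Rapgef1 (0.971), Atp6v1c1 (0.964) and Gpr132 (0.961). Nfkbia was nearest to Bcor (0.990), Il1rl1 (0.947) and Irf4 (0.930), Nfkbiz to Ascc3 (0.978), Slamf1 (0.959) and Caprin1 (0.957), and Tnfaip3 to Vamp1 (0.966), 1810013L24Rik (0.949) and Trp53bp1 (0.948). Over the 8 sets of the second experiment these pairs had r between -0.74 and 0.82, and 1 pair had no value there.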

How the data were processed

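RNA was measured by CEL-seq2 in sorted bulk samples. The deposited tables hold whole-number counts for each gene. The genome build was GRCm38, and the tools named in the submitters' processing notes are bcl2fastq 2.2, BWA 0.7.15 and HTSeq. Use of molecular barcodes and of strand in counting are not given in the sources used here, so the counts may hold amplification copies. Control transcript rows (ERCC) were left out.

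Tests used edgeR 4.0.16 in R 4.3.3: filterByExpr by set, TMM scaling, robust dispersions, 1 mean per set, all libraries of an experiment in the fit, and the quasi-likelihood F test with Benjamini-Hochberg adjustment over all genes. The SE is the log2 fold change over the square root of F. The members and lists were chosen with earlier results of these data known. From each list up to 6 called genes with the smallest p are named per comparison described, and for each member the 3 genes most alike by Pearson's r (log2 CPM with a prior count of 2). A group was read from a header code only where it could mean no other group.

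Alternatives were median-of-ratios scaling, no low-count filter, DESeq2 1.42.0, a replicate block (first experiment), leaving out each library, and, chosen after seeing the data, leaving out mitochondrial transcripts.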

Additional observations from a re-analysis of the deposited data

Results flagged for a closer look

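Each gene's CPM was searched in each labelled group of 4 to 10 libraries for a single library far from the others (Dixon's 95% critical value, 0.625 for 6 libraries), which chance gives in about 1 in 20 groups. Of 50 such groups 3 held one, all among the 6 libraries of the day 2 subsets other than CD69+CD103+, which mix 3 subsets. Nfkb1 was at 649 CPM in library 2 of subset 1_02, against 369.9 to 413.95 CPM in the other 5. Nfkbiz was at 320.38 CPM in the same library, against 185.84 to 235.44 CPM. Tnfaip3 was at 1559.2 CPM in library 2 of subset 1_05, against 986.87 to 1161.1 CPM. These libraries do not enter the comparison of settled TRM with day 2 CD69+CD103+ cells other than through the shared dispersion.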

How the results depend on the processing

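Of 55 results called for the 10 genes, 39 kept their call under every alternative, 16 lost it under at least 1, and 0 reversed. Of 115 not called, 16 were called under at least 1. The number of the 10 genes called moved by over 1.5 times as follows. For code 4 against code 3 in GFP-positive TRM it was 1, and 3 without the low-count filter, 2 by DESeq2, 2 with the replicate block, 2 without mitochondrial transcripts, and 0 to 2 with a library left out. For GFP-negative code 4 against day 0 it was 4, and 2 with the replicate block (Nfkbia, adjusted p = 0.0618, and Nfkbid, 0.0784, were not called), and 1 to 4 with a library left out. By DESeq2 it was 1 in place of 0 for day 2 CD69+CD103+ cells against the other subsets, 3 in place of 0 among the day 2 subsets (1 without the filter), and 3 in place of 1 among the settled sets. With a library left out it was 4 to 6 in place of 7 for GFP in code 4, 1 to 3 in place of 2 for GFP-negative code 3 against day 0, 3 to 6 in place of 5 for code 2, 1 to 2 in place of 2 for settled TRM against day 2, and 0 to 1 in place of 1 among settled sets. The cause was not tested. Whether replicate letters pair the libraries is not given by the labels. Over 28 pairs of sets, deviations of the A libraries from their set means had r between -0.06 and 0.03. Such values cannot exclude pairing, since spread in low counts can hide it. With 2 libraries in most sets a left-out library leaves a lone one, assumed to vary like the others.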
